A study of Homo sapiens with 2 samples.

Results

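The 4 human TEAD genes, TEAD1 to TEAD4, encode the DNA-binding partners of YAP, and the peaks of active YAP in hg19 windows around them are described here. The windows ran from 12.65 to 13.02 Mb on chromosome 11 for TEAD1, from 49.79 to 49.92 Mb on chromosome 19 for TEAD2, from 35.39 to 35.52 Mb on chromosome 6 for TEAD3 and from 3.01 to 3.2 Mb on chromosome 12 for TEAD4. Every peak whose summit lay in a window was taken, which gave 6 of the 9393 peaks in the list. The data are chromatin immunoprecipitation sequencing (ChIP-seq) of MCF10A, a human mammary epithelial line that the labels call non-transformed in one field and a breast cancer line in another. The cells expressed Flag-YAP-5SA, a Flag-tagged mutant of YAP that is active because serines phosphorylated by the LATS kinases are replaced by alanine. The study comprised 1 Flag-YAP-5SA ChIP library, collected on Flag-M2 beads, and 1 input DNA library of the same line, for which no values were analysed here. With no replicate, no value below has an error between cultures and no test was possible. Cells without the transgene were not analysed here, so the peaks describe the expressed mutant and not YAP at its natural level.

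YAP has no DNA-binding domain of its own. In the Hippo pathway, the kinases LATS1 and LATS2 phosphorylate YAP and keep it out of the nucleus, and unphosphorylated YAP enters the nucleus and binds TEAD proteins. A TEAD protein contacts DNA through its N-terminal TEA domain, which recognises the letters GGAATG, and holds YAP or its relative TAZ through its C-terminal domain. The 4 paralogs share this layout and differ in where they act: in the mouse, Tead1 is needed for heart development, Tead2 acts with Tead1 in the early embryo, and Tead4 is needed for the trophectoderm, while TEAD3 was described in the human placenta.

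Peaks were found in the windows of 3 of the 4 genes. The TEAD1, TEAD3 and TEAD4 windows held 2 summits each, and the TEAD2 window held 0. Among windows of equal length laid along all chromosomes, 43.4% were empty at the TEAD1 length of 0.37 Mb. The empty share was 62.5% at the TEAD4 length of 0.19 Mb and 71.3% at the 0.13 Mb of TEAD2 and TEAD3. In each of the 3 occupied windows, 1 peak was tall and the other was not. The tall peak of the TEAD3 window lay only 3.15 kb inside the window's edge. The height is the authors' score at the summit, deposited without a unit. The tall peaks had heights of 56 at TEAD4, 54 at TEAD1 and 43 at TEAD3, and the lower peaks of the same windows had heights of 31, 24 and 23. All 3 taller peaks were above all 3 lower ones. Against a height of 40, which was taken as the limit of a tall peak, 3 of the 6 peaks passed, and 8.67% of the whole list did. The median height of the 6 peaks was 37, and that of the list was 24. Their number is small, and the windows were drawn with earlier results of this list known, so the share is a description of these loci.

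**Figure D1:**
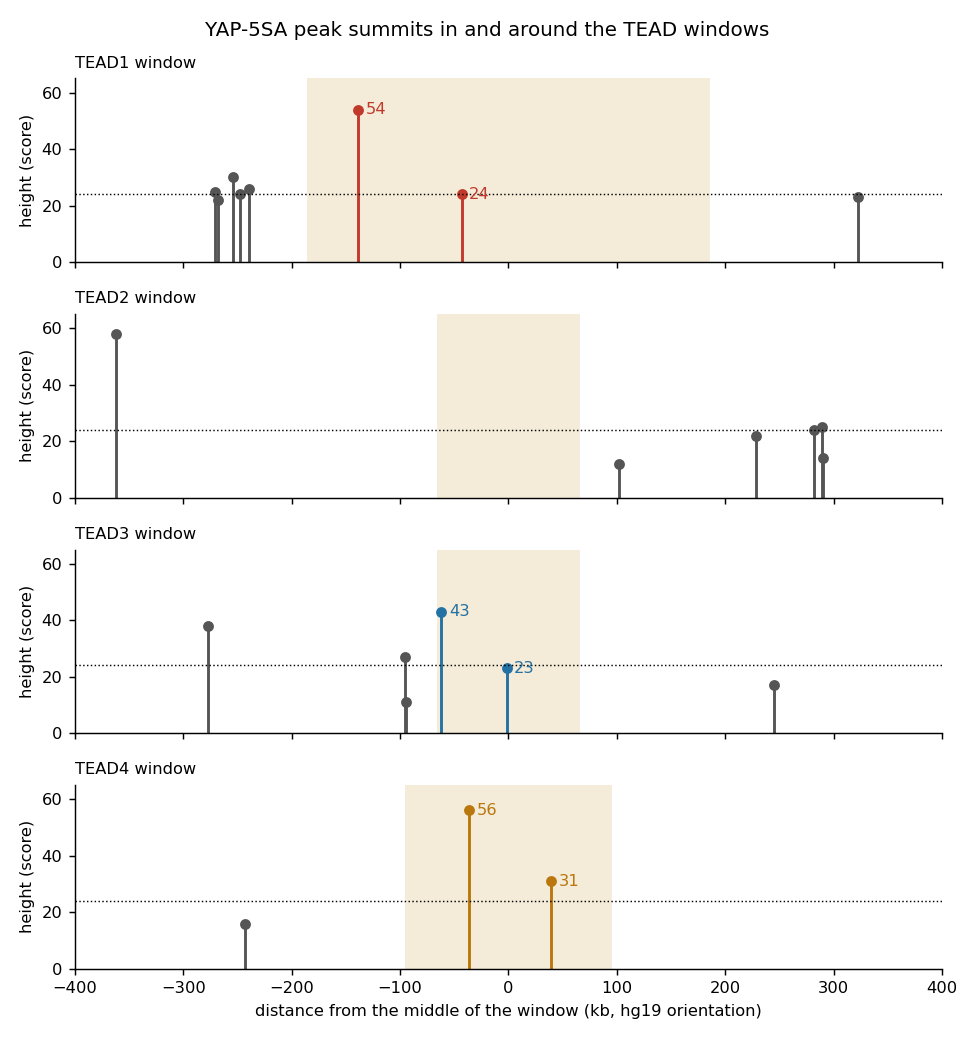
Height of each peak summit (authors' score, no unit) against its distance from the middle of the window in kb, for the TEAD1, TEAD2, TEAD3 and TEAD4 windows (shaded). Coloured summits lie in a window and carry their height, grey summits lie outside, and the dotted line is the list median of 24. The TEAD2 window is empty, and the other 3 hold a tall and a lower summit each.

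At TEAD1, the founding member of the family, the taller peak lay on chromosome 11 from 12695437 to 12696401, with its summit at 12695904. Its height of 54 placed it at rank 162 of 9393, so that 1.97% of the list was at least as tall. On chromosome 11 it ranked 7 of 443. It was the tallest of the 54 peaks within 5 Mb, whose median height was 24. The nearest peak at least as tall lay 8.03 Mb away toward lower coordinates and 23.7 Mb away toward higher ones. The lower TEAD1 peak, from 12791420 to 12791942, had a height of 24, which is the list median. It lay 95.8 kb from the taller one, and 37.2% of listed peaks lay at least as far from their nearest summit.

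Around the TEAD1 pair, no other summit was listed across 562 kb, from a peak of height 26 that lay 54.5 kb below the window to a peak of height 23 that lay 137 kb above it. The peak below closed a group of 5 within 400 kb of the window's middle, with heights of 22 to 30, all below the 54 of the tall peak. In the RefSeq gene order of GRCh38, the protein-coding neighbours of TEAD1 are PARVA, which encodes the focal adhesion protein alpha-parvin, and RASSF10, a member of the Ras association domain family.

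At TEAD4, the paralog known from the mouse trophectoderm, the taller peak lay on chromosome 12 from 3068224 to 3069076, with its summit at 3068576. Its height of 56 was the highest of the 6 and ranked 129 in the list, with 1.53% of peaks at least as tall. It ranked 8 of 472 on chromosome 12. No peak at least as tall was listed between it and the first summit of the chromosome, 2.85 Mb away. Toward higher coordinates the nearest one also lay at 2.85 Mb. The lower TEAD4 peak, from 3144272 to 3144850, lay 76 kb from it and had a height of 31. It was the tallest of the 3 lower peaks, and 23.6% of the list was at least as tall. Both TEAD4 peaks were therefore above the list median.

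Within 5 Mb of the tall TEAD4 peak there were 34 peaks, itself included, with a median height of 23.5, and it ranked 2 among them. The pair were the only summits in a stretch of 842 kb, which was bounded by a peak of height 16 at 148 kb below the window and by a peak of height 15 at 504 kb above it. Both flanking peaks were low, with 92.1% and 94.8% of the list at least as tall. Of the listed peaks, 42.9% lay at least 76 kb from their nearest summit, as the TEAD4 pair did. How often 2 summits stand alone in 842 kb, or in the 562 kb at TEAD1, was not computed. The protein-coding neighbours in the RefSeq order are TULP3, which acts in transport into cilia, and TSPAN9, a tetraspanin. Which of these genes or TEAD4 itself a peak belongs to was not determined, because no gene positions on hg19 were used here.

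At TEAD3, the taller peak lay on chromosome 6 from 35392963 to 35393344, with its summit at 35393152 and a height of 43. It ranked 521 in the list, and 6.14% of peaks were at least as tall. On chromosome 6 it ranked 20 of 541. Among the 35 peaks within 5 Mb, whose median height was 24, it ranked 4. Peaks at least as tall were found 2.56 Mb below it and 2.3 Mb above it. The lower TEAD3 peak, from 35452919 to 35453735, had a height of 23 and lay 60.1 kb from the taller one.

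The tall TEAD3 peak sat at the border of its window. Its summit was 3.15 kb inside the lower edge, whereas the lower peak was 63.3 kb inside that edge. When each window was narrowed by 25 kb on each side, the TEAD3 window kept 1 peak, that of height 23, and the TEAD1 and TEAD4 windows kept 2 each. The next summit outside lay 29.9 kb below the edge and had a height of 11, one of the lowest in the list, with 99.9% of peaks at least as tall. Directly beyond that summit lay another of height 27, above the list median of 24. In the RefSeq order of GRCh38 the protein-coding neighbours of TEAD3 are RPL10A, a ribosomal protein gene, and TULP1, a photoreceptor gene. Beyond RPL10A on the side of the tall peak follow FANCE, a gene of the Fanconi anaemia pathway, and PPARD, which encodes a nuclear receptor. These further genes were looked up after the peak's position had been seen, and the peak was assigned to none of them.

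The TEAD2 window, as long as that of TEAD3, held no summit. It lay in a peak-free stretch of 464 kb on chromosome 19. The stretch was bounded 297 kb below the window by a peak of height 58 from 49492630 to 49493388, which was taller than any peak in the TEAD windows. It was bounded 36.8 kb above the window by a peak of height 12 from 49956441 to 49957192. A stretch this long was not rare: of the 9370 gaps between neighbouring summits 19.4% were at least as long, and of the 223 gaps on chromosome 19 17% were. The median gap was 137 kb. Each gap was counted once whatever its length, whereas a fixed place falls more readily into a long gap. The shares are therefore shares of gaps and not of places on the chromosome. The protein-coding neighbours of TEAD2 are CD37, a tetraspanin of leukocytes, and DKKL1, a Dickkopf-like gene of the testis. The list holds only places that passed the authors' peak caller, so an empty window does not show that YAP-5SA was absent there.

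RefSeq's table of promoters on GRCh38.p14 matched only 2 of the 4 genes, with 1 start for TEAD3 and 2 for TEAD2. Sequences before the start sites are therefore shown for TEAD3 and TEAD2 alone. They are not a contrast of windows with and without peaks, because each side would hold 1 gene. Promoters of TEAD1 and TEAD4 were not analysed here. The 250 bases before the start are printed 5′ to 3′ on the strand of the gene, and capitals mark CpG dinucleotides. The TEAD3 promoter is chr6:35497080-35497329 and the TEAD2 promoter is chr19:49362417-49362666, both on the minus strand.
TEAD3: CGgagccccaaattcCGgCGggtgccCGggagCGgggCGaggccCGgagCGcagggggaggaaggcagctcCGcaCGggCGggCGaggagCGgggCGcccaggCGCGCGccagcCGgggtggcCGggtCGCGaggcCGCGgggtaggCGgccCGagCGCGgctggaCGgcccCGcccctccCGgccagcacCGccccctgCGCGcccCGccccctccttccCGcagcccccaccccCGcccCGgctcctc
TEAD2: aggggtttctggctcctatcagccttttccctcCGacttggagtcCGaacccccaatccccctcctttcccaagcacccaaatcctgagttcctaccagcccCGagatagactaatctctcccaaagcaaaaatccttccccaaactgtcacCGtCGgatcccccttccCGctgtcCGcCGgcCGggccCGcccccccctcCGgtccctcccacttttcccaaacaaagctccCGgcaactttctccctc
The TEAD3 promoter held 37 CpG dinucleotides and the printed TEAD2 promoter 12, with 13 before the other TEAD2 start. The median over 35116 promoters was 11, with an interquartile range of 3 to 23. Over the 300 bases from 250 before to 50 after the start, the G and C content was 81.3% for TEAD3 and 64% and 67.7% for the 2 TEAD2 starts, against a median of 58.7% for all promoters. The TEAD motif GGAATG, searched on both strands, was in 0 of the 3 promoters and in 14% of all promoters. The AP-1 motif TGANTCA, searched the same way, was also in 0 of the 3, and in 7.71% of all promoters. These letters are on another build than the peaks, so whether a peak covers a promoter was not analysed here, and the sequence under the peaks was not used.

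The 6 peaks also differed in width, and TEAD3 went the opposite way from TEAD1 and TEAD4. At TEAD1 the taller peak was 965 bp wide and the lower one 523 bp. At TEAD4 the taller peak was 853 bp wide and the lower one 579 bp. At TEAD3 the taller peak was 382 bp wide and the lower one 817 bp. The median width of the list was 611 bp, and that of its 814 tall peaks was 686.5 bp. The tall TEAD1 peak was wider than most: 93.8% of the list was at most as wide. Among the 814 tall peaks, 721 were at most as wide, itself included. The tall TEAD4 peak was similar, with 89.3% of the list at most as wide. Its share among tall peaks was not computed. The tall TEAD3 peak was among the narrowest, with 3.2% of the list and 4 of the 814 tall peaks, itself included, at most as wide. The widths come from 1 library and from the limits the caller set, and no error can be given for them.

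**Figure D2:**
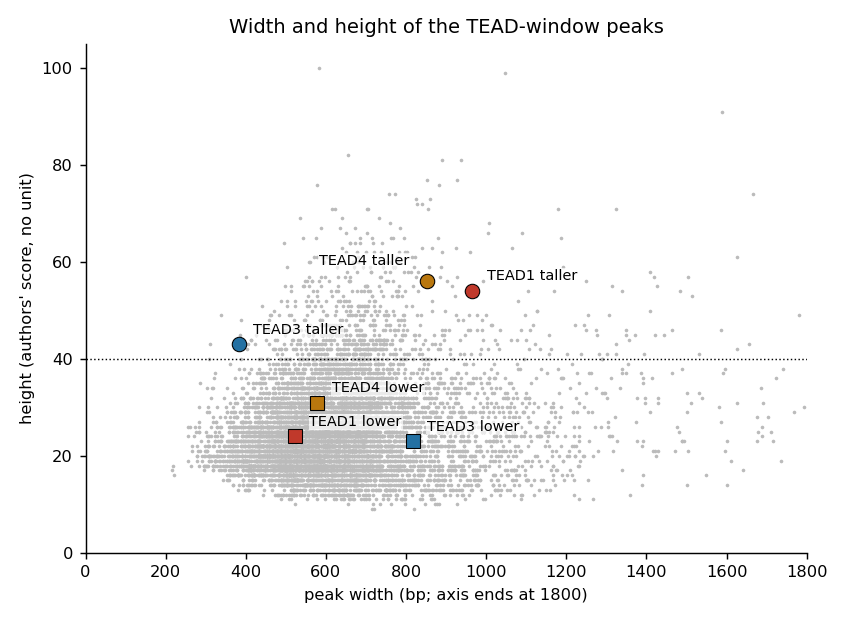
Height (authors' score, no unit) against width in bp for every peak (grey points) and for the TEAD-window peaks, with circles for the taller and squares for the lower peak of a window. The dotted line marks a height of 40, and 11 peaks wider than 1800 bp fall outside the axis. The tall TEAD1 and TEAD4 peaks are wide, at 965 and 853 bp, and the tall TEAD3 peak is narrow, at 382 bp.

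Heights were not corrected for DNA copy number. Each peak was also ranked within its own chromosome, which does not correct for gains or losses of part of a chromosome. Among peaks of the same chromosome, 2.03% were at least as tall as the tall TEAD1 peak, 1.69% as the tall TEAD4 peak and 3.88% as the tall TEAD3 peak. For the lower peaks the shares were 53.5% at TEAD1, 23.7% at TEAD4 and 51.4% at TEAD3. The tall and lower peaks of a window lie within 100 kb of each other and differed in height by 30 at TEAD1, 25 at TEAD4 and 20 at TEAD3. Over the list, 1236 pairs of neighbouring summits lay 50 to 100 kb apart, as the 3 TEAD pairs did. Their median difference in height was 8, and 13.3% differed by 20 or more. A tall peak beside one that was not tall made up 15.4% of these pairs.

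**Figure D3:**
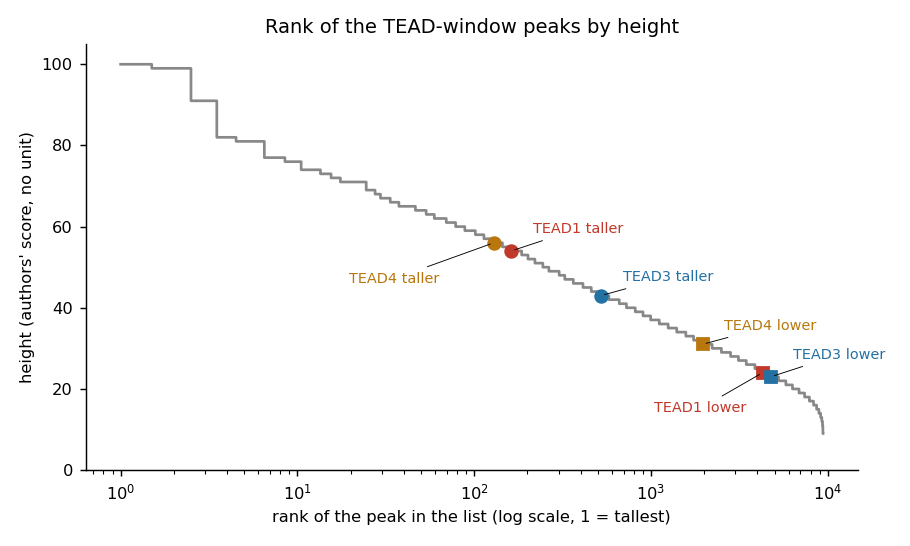
Height (authors' score, no unit) against rank in the list of 9393 peaks on a log scale, with 1 the tallest. Circles mark the taller and squares the lower TEAD-window peaks. The tall TEAD4 and TEAD1 peaks lie at ranks 129 and 162, the tall TEAD3 peak at 521, and the lower peaks at 1959, 4279 and 4767.

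In number, at least 2 summits in a window were less common the shorter the window was. When the chromosomes were tiled with windows as long as that of TEAD1, 0.37 Mb, 30.2% of 7857 windows held at least 2 summits, so the TEAD1 count is close to what many windows held. Of windows as long as that of TEAD4, 0.19 Mb, 14.4% of 15313 held at least 2. Of windows as long as those of TEAD2 and TEAD3, 0.13 Mb, 8.81% of 22387 held at least 2, as TEAD3 did, and 71.3% held 0, as TEAD2 did. An empty window was therefore the usual case among tiles of this length. The mean number of summits per tile was 1.19 at 0.37 Mb, 0.611 at 0.19 Mb and 0.418 at 0.13 Mb. The tiles were laid without regard to genes or unassembled sequence, whereas the TEAD windows were drawn around genes. Shares for windows around other genes were not computed.

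A tall peak in a window was less common than a pair of summits. A summit of height 40 or more was found in 8.92% of windows of 0.37 Mb, 4.85% of windows of 0.19 Mb and 3.37% of windows of 0.13 Mb, and the TEAD1, TEAD4 and TEAD3 windows each had 1. Among windows with exactly 2 summits, the arrangement of these 3 windows, with 1 tall and 1 lower peak, made up 13.6% of 1099 windows of 0.37 Mb, 15.5% of 1347 windows of 0.19 Mb and 15.9% of 1337 windows of 0.13 Mb. The TEAD windows are 4 places chosen by gene, and no statement on the family is drawn from these shares.

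**Figure D4:**
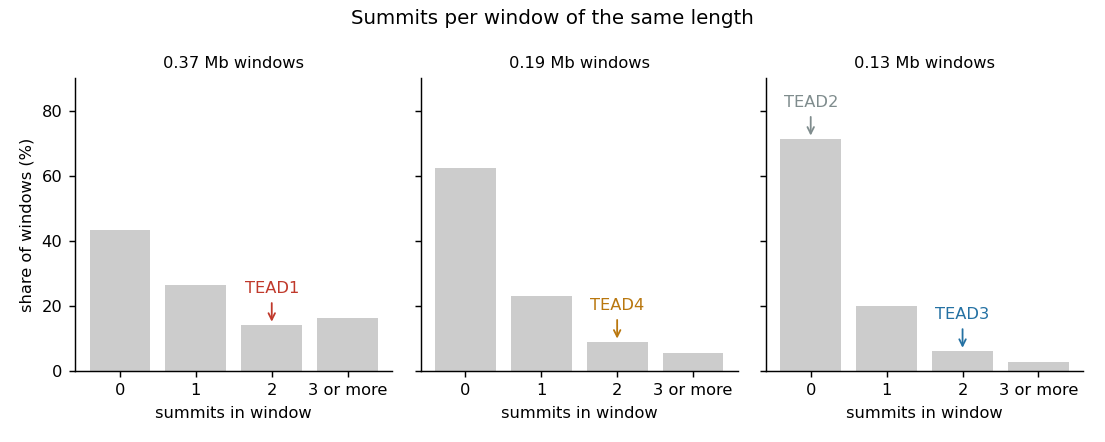
Share of windows in percent against the number of summits they hold, for windows of 0.37, 0.19 and 0.13 Mb tiled along all chromosomes. Arrows mark the TEAD windows of each length. TEAD1, TEAD4 and TEAD3 fall among windows with 2 summits, and TEAD2 among the 71.3% with 0.

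Of the 6 summits, 4 fell on multiples of 32 bp, and the lower peaks of TEAD3 and TEAD4 fell 16 bp from one. Not every summit of the list did so: the nearest one below the TEAD3 window, at 35360139, fell on neither step. The share over the whole list was not computed. The distances between summits given above, all over 60 kb within a window, are far larger than 32 bp.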

How the data were processed

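Peaks of 1 Flag-YAP-5SA ChIP library were used, and the input library was not analysed here. Per the submitters' processing notes, the tools were BWA 0.6.1 and MACS and the build was hg19. For MACS, the version, threshold and control are not stated in the sources. A summit track, per the file headers, gives each position with a score, deposited by the authors as whole numbers and called the height, and an interval track gives start and end. Both tracks were joined by order, and each summit lay on the chromosome of its interval and inside it. Interval starts are given 1-based and summits as deposited.

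Members were the summits inside the 4 windows. The windows, the height of 40 and the comparisons were chosen with earlier results of these data known. All 4 TEAD genes are named whatever their values, with the nearest protein-coding gene on each side. Read depth is unknown, so no interval from counts was computed. Windows of equal length were tiled from the first to the last summit of each chromosome. Tiling was tested on simulated data. Gene order, promoters and motifs came from RefSeq tables of GRCh38.p14, and no coordinates were converted. Other pathway genes were not looked up, because no hg19 annotation was used. Alternatives covered the height limit, window edges, overlap, close peaks and tiling. Work was done in Python 3.11.15 with pandas 2.3.3, numpy 2.4.6, scipy 1.17.1 and matplotlib 3.10.9.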

Additional observations from a re-analysis of the deposited data

How the results depend on the processing

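No paired analysis was possible because ChIP and input are single libraries without replicates, and none could be left out. The windows held 6 peaks. This count was 4 for peaks higher than the list median and 3 for peaks of height 40 or more. In the whole list of 9393 peaks, 4278 were higher than the median. The count was 5 with windows narrowed by 25 kb on each side, and 9 with windows widened by 50 kb. Widening added a peak to TEAD2 and 2 to TEAD3. Counting intervals that overlap a window by at least 1 bp, or peaks under 200 bp apart as 1, gave 6 again.

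The median member had 14.9% of the list at least as tall. This share was 13.8% within the same chromosome, 8.91% when members and list were limited to peaks above the list median, 36.8% with wider windows and 23.6% with narrower ones. Wider windows took in peaks of heights 12 at TEAD2 and 11 and 27 at TEAD3, and narrower ones lost the tall TEAD3 peak.

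Windows with at least 2 summits made up 30.2% at the TEAD1 length, 14.4% at the TEAD4 length and 8.81% at the TEAD3 length. For peaks higher than the median these shares were 12%, 4.81% and 2.86%, lower by construction. At that setting the TEAD1 and TEAD3 windows held 1 peak each, and only the TEAD4 window still held 2. With all peaks, the shares on the same chromosome were 33.1% for TEAD1, 15.5% for TEAD4 and 8.76% for TEAD3. Empty windows of the TEAD2 length made up 71.3%, 69.5% on chromosome 19 and 84.6% for peaks higher than the median. Tiles were also moved along so that each began in the middle of a main tile. The shares with at least 2 summits were then 30.4% for TEAD1, 14.1% for TEAD4 and 8.88% for TEAD3. Empty windows of the TEAD2 length then made up 71.6%. Both tilings counted the same summits, so their closeness gives no error for the shares. The motif counts were made in only 1 way. All values come from 1 library of unknown depth.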
